A study of Arabidopsis thaliana with 2 samples.

Results

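Cold-regulated and evening clock genes were compared between wild-type Arabidopsis thaliana and a transgenic line on single-gene probe sets, each read by a set of short probes on the array. The members are 6 named genes, matched by symbol or locus tag, of 13356 genes with a probe set of their own. The 3 evening-phased members are GI, COR27 and AT4G33980, and the 3 dehydrin and COR15 type members are COR47, LTI30 and COR15B. All 6 passed a signal filter, a mean signal over both arrays of at least 192, which 5862 genes passed. The members were selected on their signals and their OE-N6 over wild-type ratios on these same arrays, so the values below describe the genes and test nothing.

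There was 1 Affymetrix ATH1 array for each genotype. The control was wild-type Columbia-0. The other array held OE-N6, a Columbia-0 line overexpressing the locus AT4G16790, which the labels call NHRGP. Both came from whole seedlings 2 weeks old, raised at 22 °C on diluted MS plant medium plus 2% sucrose in cycles of 16 h light and 8 h dark. No cold treatment is part of the design. OE-N6 is 1 line, and the labels name neither the promoter that drives the transgene nor the hour of harvest nor how many seedlings went into each RNA sample. With 1 array per genotype there is no SD between replicates and no p-value. The precision of all values is limited by this number of arrays.

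The 2 sets of genes belong to responses that meet in the plant. In the cold, CBF transcription factors switch on genes such as COR15 and COR47, whose products are hydrophilic proteins that guard membranes and other proteins against water loss on freezing. The circadian clock gates this response, so that many cold-regulated genes also cycle through the day in the warm. GI, or GIGANTEA, is expressed late in the day, holds clock and photoperiod proteins in complexes, and promotes flowering in long days. COR27 is regulated by both the clock and cold and acts back on clock genes, and AT4G33980 is likewise under both kinds of control. COR47 and LTI30 are dehydrins, and COR15B encodes a small chloroplast protein.

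The labelled tissue and transgene were checked first. The overexpressed locus AT4G16790 read 5171 in OE-N6 against 91.1 in the wild type. The wild-type value lies below 111, the floor under which values were not taken as measured. Of the shoot and root markers, 4 of 6 green tissue genes and 2 of 6 root genes had a probe set of their own and passed the filter. RCA, which activates Rubisco, read 18082 in OE-N6 against 17660.2, and PYK10, a root beta-glucosidase, 16513 against 15969.7. The other markers differed more widely, with log2 ratios from -0.18 for the green marker LHCB4.2 to 0.35 for the root marker AT1G62500. No seed or flower marker had a probe set named as its own, so those organs were not checked. RNA quality can be read from control genes probed at their 3' end and further upstream. The 3' signal over the upstream signal was higher in OE-N6 for 9 of 10 overlapping pairs, with log2 differences from -0.20 to 0.39. RNA spikes added before labelling had a mean log2 ratio of 0.12 (SD 0.19 over 23 probe sets). Spikes added at hybridisation had a mean of 0.09 (SD 0.17 over 18 probe sets). The part of these differences in the results below was not tested.

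Among the evening members, all 3 had a lower signal in OE-N6. GI (AT1G22770) read 1684 on the wild-type array and 1158 on the OE-N6 array. OE-N6 was thus 31.2% below the wild type, a log2 ratio of -0.54, and the wild type was 1.45-fold higher. This was the largest difference of the 6 genes, and its ratio stood 180th from the lowest among the 5862 genes. In whole seedlings, fewer cells expressing a gene and less of its RNA per cell cannot be told apart.

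COR27 (AT5G42900) read 1273 in OE-N6 against 1500.0 in the wild type. Its log2 ratio was -0.24, or 15.1% lower in OE-N6. AT4G33980 read 531 against 658, a log2 ratio of -0.31 and 19.3% lower. These differences were smaller than that of GI, and both genes lay among the lower 19.5% of log2 ratios, AT4G33980 among the lower 13.2%.

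The dehydrin and COR15 type members did not move as one. COR15B (AT2G42530) read 529 in OE-N6 against 649.6 in the wild type. Its log2 ratio of -0.30, or 18.5% lower in OE-N6, lay inside the range of the evening members. COR47 (AT1G20440), an acidic dehydrin, read 5337 in OE-N6 against 5239. LTI30 (AT3G50970), also known as XERO2, a dehydrin that binds membranes, read 2391 against 2399. The log2 ratios were 0.03 for COR47 and -0.0047 for LTI30, so the signals of both dehydrins were nearly equal on the arrays. The sign for COR47 depends on the scaling: its log2 ratio was -0.036 after quantile scaling and -0.026 after loess scaling.

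**Figure D1:**
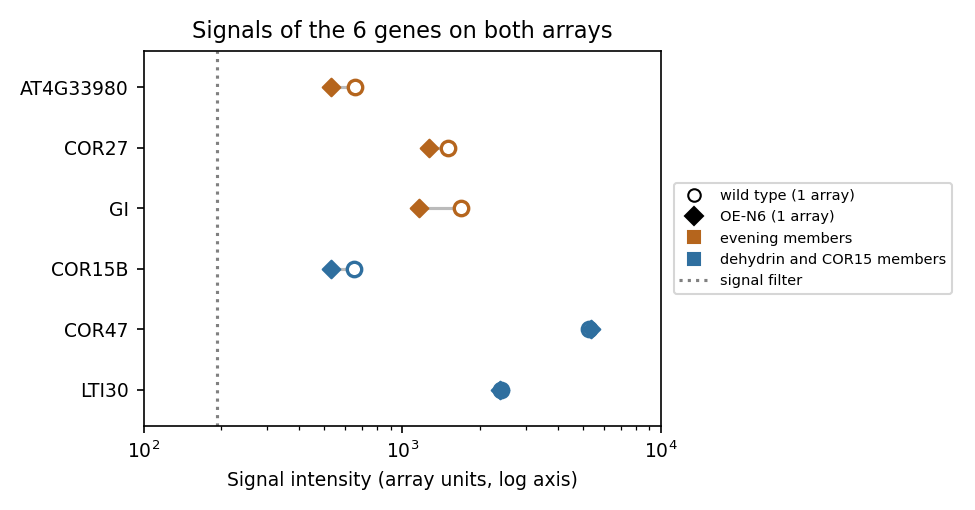
Signal intensity (log axis, array units) of the 6 genes, with 1 open circle for the wild-type array and 1 filled diamond for the OE-N6 array per gene; the dotted line is the signal filter of 192. GI shows the widest gap, from 1684 to 1158. The wild-type and OE-N6 points of COR47 nearly coincide, as do those of LTI30.

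No member reached 1.5-fold in either direction. Of all 5862 genes, 2.41% were at least 1.5-fold lower and 2.44% at least 1.5-fold higher in OE-N6. At 2-fold, where no member lay either, the shares were 0.495% lower and 0.546% higher. A log2 ratio below 0 was found for 5 of the 6 members, and for 53.2% of all genes. Because the genes were chosen with these ratios known, the count of members below 0 is given with no reading of it.

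Set side by side, the evening members had a median log2 ratio of -0.31, with a range from -0.54 to -0.24. The dehydrin and COR15 type members had a median of -0.0047, with a range from -0.30 to 0.03. Over all 5862 genes the median was -0.02, and log2 ratios varied from gene to gene with an SD of 0.31, which is not a replicate error. The evening median was thus 0.30 below the other on the log2 scale, or 0.25 below it after quantile or loess scaling. The ranges overlap through COR15B. Of the 9 pairs of an evening and a dehydrin or COR15 type gene, the evening gene had the lower ratio in 8. The exception was COR27 against COR15B, which differed by 0.06. Among the 8, the log2 difference of AT4G33980 from COR15B was only -0.014, so those genes were nearly equal. The pairs reuse the same few ratios, which were known when the genes were chosen, so this count tests nothing. Without COR15B, the other two members of its set had a median of 0.01. The split between the sets therefore rests on the 2 dehydrins, COR47 and LTI30, and COR15B sits with AT4G33980 and COR27.

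In level, the evening members had signals from 658 to 1684 on the wild-type array and from 531 to 1273 on that of OE-N6. The dehydrin and COR15 type members ran from 649.6 to 5239 and from 529 to 5337. Brightness also depends on the probes, so the signal of one probe set is no measure of its RNA against that of another, and these ranges are not compared. Within the wild-type array the probe sets of COR47 and LTI30 were at least as bright as 97.7% and 94.0% of all non-control probe sets. GI and COR27 stood at 91.1% and 90.04%, AT4G33980 at 77.6% and COR15B at 77.3%. The order was nearly the same in OE-N6, where COR27 at 88.1% stood above GI at 86.9%. That exchange is the only change of order among the 6 genes between the arrays. The order of GI and COR27 has no replicate behind it on either array.

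The spread of ratios differs with signal over all genes. The 5862 genes were divided by signal into 10 groups of near-equal size. The brightest group, which holds COR47 and LTI30, had a median log2 ratio of 0.05 and an SD of 0.24 across 587 genes. The group that holds GI and COR27 had a median of 0.0018 and an SD of 0.26, and the group that holds AT4G33980 and COR15B a median of -0.04 and an SD of 0.28. Each member was therefore also set beside the 500 genes nearest to it in signal. For GI, 8 of those 500 genes had a ratio as low or lower. The same count was 61 for AT4G33980, 71 for COR15B and 73 for COR27. For LTI30 and COR47 it was 221 and 231, close to the middle. Only GI lay outside the range between the 10th and 90th percentiles of genes of like signal, which for GI ran from -0.29 to 0.30. These are positions among genes on the same pair of arrays and say nothing of the spread between seedlings. GI and the other members were chosen with their ratios known, so these positions test nothing.

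**Figure D2:**
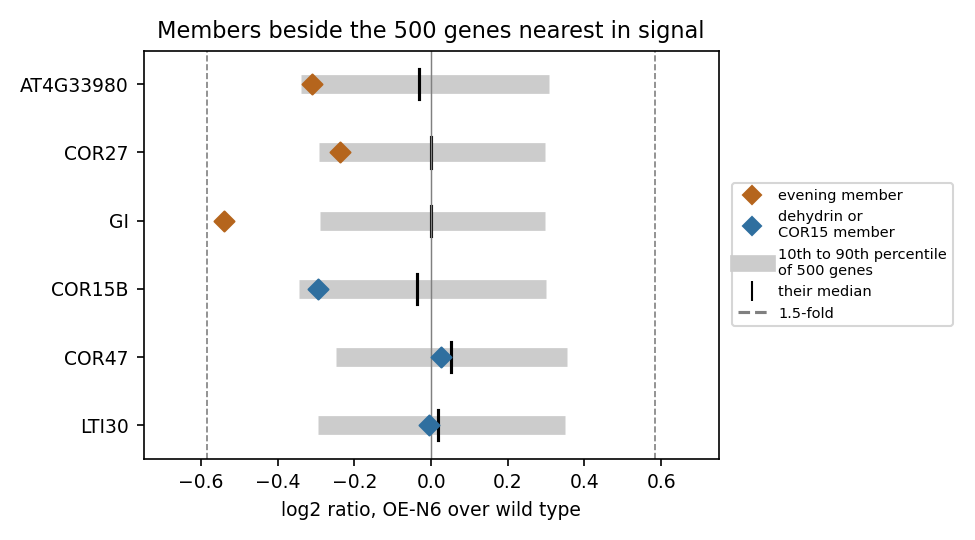
The log2 ratio of OE-N6 over wild type for each member (diamond) beside the 500 genes nearest to it in signal (grey bar, 10th to 90th percentile; black tick, median); dashed lines mark 1.5-fold. GI at -0.54 lies left of its grey bar, the other 5 genes lie within theirs, and none crosses a dashed line.

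A further measure of technical spread comes from genes with several probe sets of their own. For 41 such genes the log2 ratios of the 2 brightest probe sets differed by a median of 0.19 and by up to 0.73. Each member has 1 probe set, so none could be checked against another. This spread is within the same pair of arrays and leaves out the variation between seedlings, so it does not show whether any member differs between the genotypes.

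The other genes of the cold and clock pathways were sparsely covered by probe sets of their own. Of 76 loci in 5 lists, 10 had one, and 5 of these passed the filter, 3 with a log2 ratio below 0 and 2 above. Over all 5862 genes 53.2% were below 0, so this count is not a result about the listed genes. None of the 5 reached 1.5-fold, a difference that 2.41% of all genes had in the lower and 2.44% in the higher direction. The listed KIN1 and KIN2 share a probe set that did pass 1.5-fold, given below. The lists were made with earlier results of these arrays known.

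COR15A, the tandem neighbour of COR15B and its closest relative, lay below the signal filter, at 129.8 in OE-N6 against 123 in the wild type. Its log2 ratio of 0.08 has a sign opposite to that of COR15B, at a signal near the floor of 111 below which values were not taken as measured. The dehydrin genes beside COR47 and LTI30, ERD10 and XERO1, had no probe set named as their own. Of the other dehydrin genes, AT1G54410, known as HIRD11, a small dehydrin, read 12174 in OE-N6 against 11885, a log2 ratio of 0.03. This dehydrin, like COR47 and LTI30, had nearly equal signals on both arrays. Another 3 late embryogenesis or dehydrin loci in the list were below the floor on both arrays.

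KIN1 and KIN2, small cold- and abscisic acid-induced proteins, share a probe set, so their reads cannot be told apart. That probe set read 2025 in OE-N6 against 3594 in the wild type. Its log2 ratio of -0.83, a 1.77-fold higher signal in the wild type, was lower than that of any member. It is a bright probe set, with signals between those of LTI30 and COR47 in the wild type and below both in OE-N6. Cold-regulated genes of high signal were thus not all alike on these arrays.

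Of 16 cold signalling loci, STZ had a value. This zinc finger repressor, induced by cold and salt, read 704 in OE-N6 against 626, a log2 ratio of 0.17. The CBF genes themselves had no probe set named as their own and were not analysed here.

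Of 13 other evening clock loci, such as TOC1, ELF4 and LUX, none had a probe set named as its own. GI was therefore not compared with these other evening clock genes. Of 16 loci in the list of morning clock genes, 2 had values. The list calls AT5G52660 RVE6 and AT4G01280 RVE5, and neither has a symbol in the gene annotation used. AT5G52660 read 247 in OE-N6 against 292, a log2 ratio of -0.25. AT4G01280 read 226 against 298, a log2 ratio of -0.40. SPY, an enzyme that modifies nuclear proteins and binds GI, read 536 in OE-N6 against 673 in the wild type, a log2 ratio of -0.33. AT1G69570, the only other locus of 13 GI and photoperiod partners with a probe set of its own, was below the floor on both arrays. The 3 clock and photoperiod genes that passed the filter were all below 0, as were 53.2% of all genes, so this count is not a result about them.

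**Figure D3:**
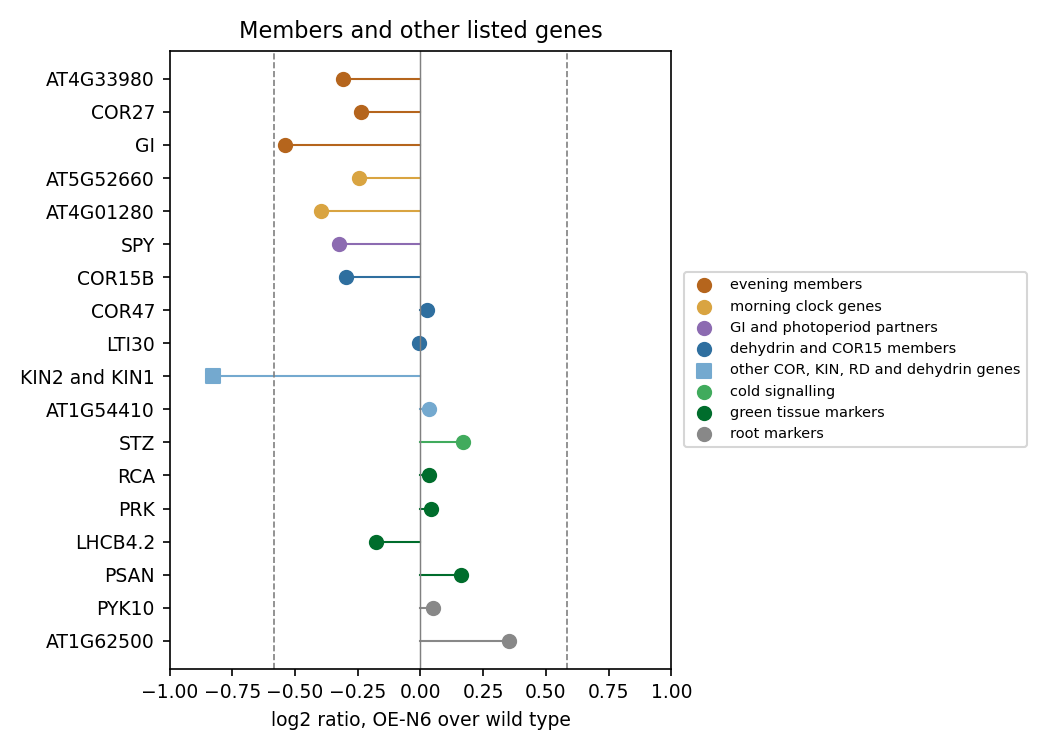
The log2 ratio of OE-N6 over wild type for the 6 members, the other listed cold and clock genes that passed the signal filter, and the tissue markers; circles are probe sets of 1 gene, the square is the probe set shared by KIN2 and KIN1, and dashed lines mark 1.5-fold. The shared probe set at -0.83 alone lies past a dashed line, and the clock genes lie between -0.54 and -0.24.

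The green and root markers on the same arrays had log2 ratios from -0.18 (LHCB4.2, a light-harvesting protein) to 0.35 (AT1G62500). RCA had 0.03, PRK, a Calvin cycle enzyme, 0.04, PSAN of photosystem I 0.16 and PYK10 0.05. The range of the 6 markers holds COR47 and LTI30 and lies above the other 4 members, and all members were chosen with their ratios known. Whether the makeup of the seedlings had a part in the members' ratios was not tested.

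The genes whose pair of log2 signals lay nearest to that of a member, among 910 genes with a symbol of their own, were found as a measure of likeness over these 2 arrays. For AT4G33980 the nearest was COR15B, at a distance of 0.02, so these members of different sets were almost one point. AAE15 was the next, at 0.03, and was also the nearest to COR15B, at 0.01, followed by MYC3 at 0.04. UGT74B1 at 0.03 and ARLA1D at 0.04 lay nearest to COR27. HCT at 0.02 and PRH75 at 0.05 lay nearest to LTI30, and JAL33 at 0.07 and CHLM at 0.14 to COR47. For GI the nearest were XERICO at 0.13, with a log2 ratio of -0.42, and CcdA at 0.18, with -0.32. GI thus had no gene with a symbol as near to it as the other evening members had. With a pair of values per gene, such nearness says only that the signals are alike.

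Of 9 alternative settings, 5 could not change a member's ratio, because each member has 1 probe set well above the floor and a filter alters no ratio. Under the other 4, which were median centring, quantile and loess scaling and a pseudocount, the log2 ratio of GI stayed at -0.54, that of COR27 between -0.24 and -0.23, that of AT4G33980 between -0.31 and -0.28 and that of COR15B between -0.30 and -0.26. LTI30 stayed between -0.03 and -0.0022. All 3 evening members and COR15B kept a ratio below 0 under these 4, and GI kept the lowest.

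**Figure D4:**
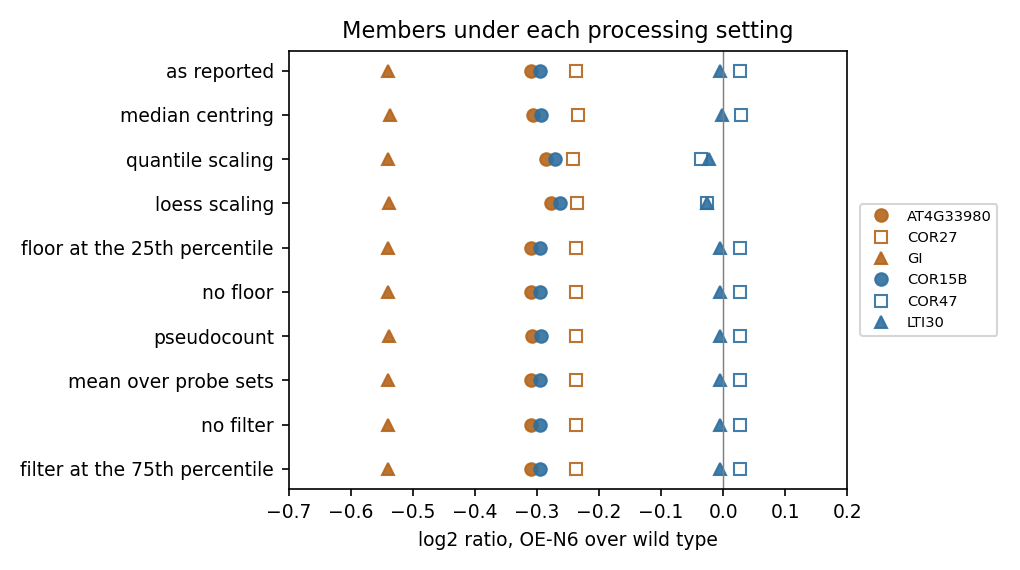
The log2 ratio of OE-N6 over wild type for the 6 members (symbols) as reported and under each of 9 other processing settings (rows), of which 5 cannot alter a member's ratio. GI keeps its place at -0.54, AT4G33980, COR15B and COR27 stay between -0.31 and -0.23, and COR47 crosses 0 under quantile and loess scaling.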

How the data were processed

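Total RNA of whole seedlings, 6 µg per genotype, was biotin-labelled and hybridised to 1 ATH1 array each, per the labels' protocols. What the authors deposited is a linear signal intensity per probe set, made with MAS5 per the submitters' processing notes. The MAS5 version and scaling target are not stated there. The mean signal without the top and bottom 2% of probe sets was 500.0 on both arrays, so each carries 1 scaling factor, and a change shared by most transcripts would not show.

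Of 22746 non-control probe sets, 13513 had 1 gene in the platform annotation, 503 several and 8730 are unnamed here. Symbols were updated through the RefSeq table of TAIR10.1, in which 13286 of 13356 genes matched. No build is named for the arrays, so no coordinates are given. The brightest probe set stood for a gene. Signals under the 40th percentile (111) were raised to it before taking log2 ratios, and genes with a mean at or above the median (192) were kept. A log2 ratio is OE-N6 over wild type. Signal neighbours are the 500 genes closest in mean log2 signal. Likeness is the distance between log2 signals on both arrays, with the 2 nearest genes named.

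The members and lists were chosen with earlier results of these data known. All members were named, and from the lists the genes with a value that passed the filter, probe sets shared by listed loci and tandem neighbours. The calculation was tested on simulated data with differences larger than those of any member, so that test does not speak to differences of their size. Alternatives were median, quantile and loess (span 0.3) scaling, a floor at the 25th percentile or none, a pseudocount of 3.51, the mean over probe sets, a filter at the 75th percentile or none and a fold of 2. Python 3.11.15, numpy 2.4.6, pandas 2.3.3, statsmodels 0.14.6 and matplotlib 3.10.9 were used.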

Additional observations from a re-analysis of the deposited data

How the results depend on the processing

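Of 9 alternatives, 5 (the floors, the mean over probe sets and the filters) could not change a member. Under the other 4, all 36 values of the 6 members, their medians and the difference of medians moved by less than 0.19 on the log2 scale, the median difference between probe sets of a gene, used because there are no replicates. Median centring shifts the members' log2 ratios alike, so it cannot change the difference of medians. The pseudocount of 3.51 is small beside the members' signals, so it could move little. The difference between the evening and the dehydrin and COR15 type medians ran from -0.30 to -0.25. COR47 changed sign under quantile (-0.036) and loess (-0.026) scaling. Genes at least 1.5-fold lower and higher, 141 and 143 as reported, numbered 38 and 49 with the filter at the 75th percentile, which tested 2683 genes, and 29 and 32 at 2-fold. The other alternatives stayed within 1.5 times. No paired analysis was possible because there was 1 array for either genotype. Leaving out an array leaves no comparison. Each member rests on 1 probe set, and genes near the floor are measured poorly.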

Other observations

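Of 24 loci that flank the members, counting 2 on each side, 9 had a probe set of their own and 5 passed the filter. The loci next to GI, PAB3 and PFL, had no probe set named as their own. Of those one further out, AT1G22750 read 1556 in OE-N6 against 1841, a log2 ratio of -0.24, and AT1G22790 read 322 against 389, a log2 ratio of -0.27. AT4G33985, near AT4G33980, had a log2 ratio of -0.18. AT2G42520 beside COR15B had 0.06, and AT1G20430 beside COR47 had 0.05. The flanking loci of LTI30 and COR27 gave no value that passed the filter.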
